A study of Mus musculus x Mus spretus with 8 samples.

Results

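The 80 genes described here encode the proteins of the cytosolic ribosome, 49 of the large subunit and 31 of the small subunit. They were chosen by name from the 49670 genes of the count table: protein-coding genes of the GENCODE M21 annotation whose symbol is Rpl or Rps, digits and at most 1 further letter, together with Rplp0, Rplp1, Rplp2 and Rpsa. Patski cells, the source of all RNA, are female mouse fibroblasts whose parents were of the strain C57BL/6 and of Mus spretus (SPRET/EiJ), and they were grown in DMEM with serum. Each of 4 groups had 2 libraries. One was wild type (WT), and in the others both copies of 1 gene were labelled null: Stc1 (a secreted glycoprotein, stanniocalcin 1), Pygo1 (a nuclear cofactor of beta-catenin) or Rlim (an X-linked ubiquitin ligase). Per the series description each knockout pair is a pair of separate mutants of the same cell line. The origin of the WT pair is not described, so p-values measure only the spread between these libraries, which may be technical. How the null alleles were made and how many clones each line stems from are not given in the sources used here.

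Most ribosomal proteins are needed in equal numbers for each ribosome, and their mRNAs are among the most abundant of a growing cell. Many of these mRNAs begin with a C followed by an unbroken run of pyrimidines, the terminal oligopyrimidine (TOP) tract, through which mTORC1 and the RNA-binding protein LARP1 control their translation and stability together. Mammalian genomes also hold many processed pseudogenes, copies of ribosomal protein mRNAs without introns, so that reads of a member can match several places.

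The start of the mRNA is shown for the members whose annotated transcript begins with a TOP tract, since this is the sequence through which the family is known to be regulated as one. A tract was defined as C at the first annotated base followed by at least 4 C or T. It was found in 10 of 80 members (12.5%), against 2.28% of 21899 protein-coding genes whose principal transcript was read the same way, and 23 members began with C. The first 25 bases of the annotated transcript (GENCODE M21, GRCm38, transcript strand) are printed 5′ to 3′ for most of them, with the tract in capitals:
Rpl4: CTTTTCCTgtgggagcagccgggta
Rpl30: CCTTTCTCgctccccggccatcttg
Rpl32: CTTCCTTCTTCCTCggcgctgccta
Rpl36: CTTCCTgtcccggccgccatcggag
Rpl37: CTCTTCCggtctctttggcctcgcc
Rpl37a: CTCTTCggacttgggcttgggttcc
Rps15a: CTTTCCacagccaccatggtgcgaa
Rps21: CCCTCCTgcccaatagtgctgcgga
Rps24: CTCTTTTCCTCCTCTCCagctccgg
The run of pyrimidines was longest in Rps24 (17 bases) and Rpl32 (14 bases). An annotated start can lie several bases from the start used in these cells, so the absence of a tract in the other 70 members says only that these letters do not stand at the annotated base.

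Total counts ran from 73128996 to 81500061 per library, of which 1375843 to 2341036 fell on the 80 members. Of the members, 77 passed the filter on low counts. The RNA of a targeted gene was not lower past the test in any comparison, and Stc1 itself stood at 3.67 and 68.4 CPM (counts scaled to library size by TMM) in the libraries labelled Stc1-KO against 3.84 and 3.14 in WT. Pygo1 had 2.50 and 0.674 CPM in Pygo1-KO against 2.49 and 2.44 in WT, and Rlim had 71.9 and 64.2 CPM in Rlim-KO against 57.2 and 51.4 in WT. The groups are therefore called by their labels. Of 13 fibroblast markers, 6 were at or above 1 CPM in every library and 6 below it in every library, while 6 of 9 kidney tubule markers were at or above 1 CPM in every library. The summed level of the kidney tubule markers was 8880 and 9440 CPM in WT, 7160 and 5940 in Stc1-KO, 4620 and 4930 in Pygo1-KO, and 5610 and 5870 in Rlim-KO. That of the fibroblast markers was 3460 and 3610, 5190 and 5980, 5480 and 5760, and 2710 and 2740 CPM in the same order. The part of these differences in the results on ribosomal protein genes was not tested. Epithelial, endothelial, immune and muscle markers summed to between 1.09 and 101 CPM, the highest being the endothelial sum of Stc1-KO replicate 2. The immune sum ran from 29.2 CPM (Stc1-KO replicate 2) to 59.9 CPM (Stc1-KO replicate 1). Of the 7 immune markers, 2 were at or above 1 CPM in every library. The other 5 were below it in every library, and 1 of these, the T cell gene Cd3e, was at 0 throughout.

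The 3 members that did not pass the filter were the near copies with a tissue-restricted pattern. Rpl39l and Rpl10l, known from the male germ line, had 0 counts in every library and 0 to 1 counts, and Rpl3l, known from striated muscle, had 3 to 13 counts. Between the 77 others, levels are compared as CPM per kilobase of the principal mRNA, averaged over the 8 libraries. The median was 291.9 CPM per kilobase, and 40 of 77 members lay within 2-fold of it. The 5 highest were Rplp1 (2029), Rpl8 (1649), Rps18 (1140), Rplp0 (1062) and Rpsa (829). Rplp0 and Rplp1 belong to the acidic stalk that recruits the GTPase factors of translation, and Rpsa lies near the mRNA exit of the small subunit. The 5 lowest were Rpl29 (1.60), Rpl24 (6.19), Rpl21 (9.64), Rpl7a (12.9) and Rps15a (22.0).

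The lowest members also share sequence with other genes, to unequal degrees. A run of 50 bases identical to one of Rpl7a occurred in the annotated transcripts of 123 other genes, 85 of them pseudogenes. The corresponding numbers were 84 and 58 for Rpl29, 82 and 70 for Rpl21, 9 and 7 for Rpl24, and 64 and 9 for Rps15a. Among the 5 highest members they ran from 1 other gene (Rpl8) to 28 (Rpsa). Across the 77 members the level per kilobase and the number of genes sharing 50 bases had a Spearman correlation of -0.4, and the level had one of 0.01 with the share of a member's 50-base runs that occur elsewhere. This is a description over genes that share libraries and annotation. The sources used here do not say how reads matching several places were counted, so the level of a member with such copies is uncertain. The principal mRNA of Rps15a and of Rps20 is long for this family in the annotation (5130 and 3706 bases), which lowers their values per kilobase.

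**Figure D1:**
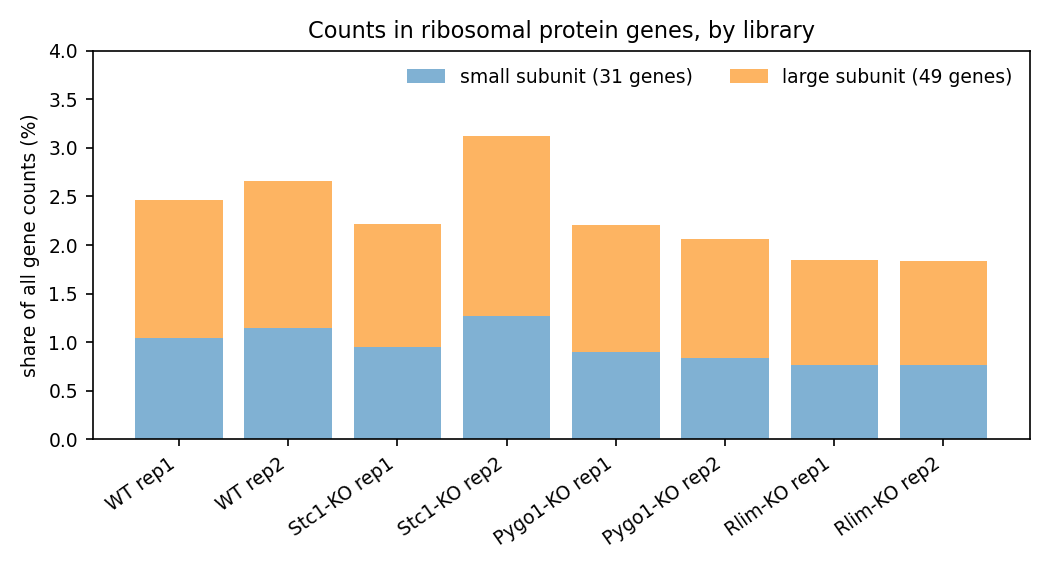
Share of all gene counts (percent, from 0) in the 80 ribosomal protein genes for each of the 8 libraries, stacked by small (blue) and large (orange) subunit. Both Rlim-KO bars (1.85 and 1.83%) and both Pygo1-KO bars (2.20 and 2.07%) are lower than both WT bars (2.46 and 2.66%), and the Stc1-KO bars (2.22 and 3.12%) lie on either side of WT.

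The members took 2.46 and 2.66% of all counts in WT, 2.22 and 3.12% in Stc1-KO, 2.20 and 2.07% in Pygo1-KO and 1.85 and 1.83% in Rlim-KO. Both Rlim-KO and both Pygo1-KO libraries thus stood below both WT libraries, while the Stc1-KO libraries stood on either side. The mean share was 2.56% ± 0.136 (SD, n = 2) in WT, and the difference from it was -0.72 percentage points in Rlim-KO (1.84% ± 0.012), -0.425 points in Pygo1-KO (2.13% ± 0.097) and 0.112 points in Stc1-KO (2.67% ± 0.64). With 2 libraries against 2, the exact two-sided permutation test cannot give a p below 0.333, and it gave 0.333 for Rlim-KO, 0.333 for Pygo1-KO and 1 for Stc1-KO. Without Stc1-KO replicate 1 or replicate 2 the last difference was 0.564 or -0.341 points. In bulk RNA, fewer cells of a type and less RNA per cell cannot be told apart. Mitochondrially encoded genes, which took 4.64% (Stc1-KO replicate 2) to 8.18% (WT replicate 1) of counts, share the total with the members. With them left out of the total the members held 2.68 and 2.87% in WT against 1.98 and 1.96% in Rlim-KO.

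**Figure D2:**
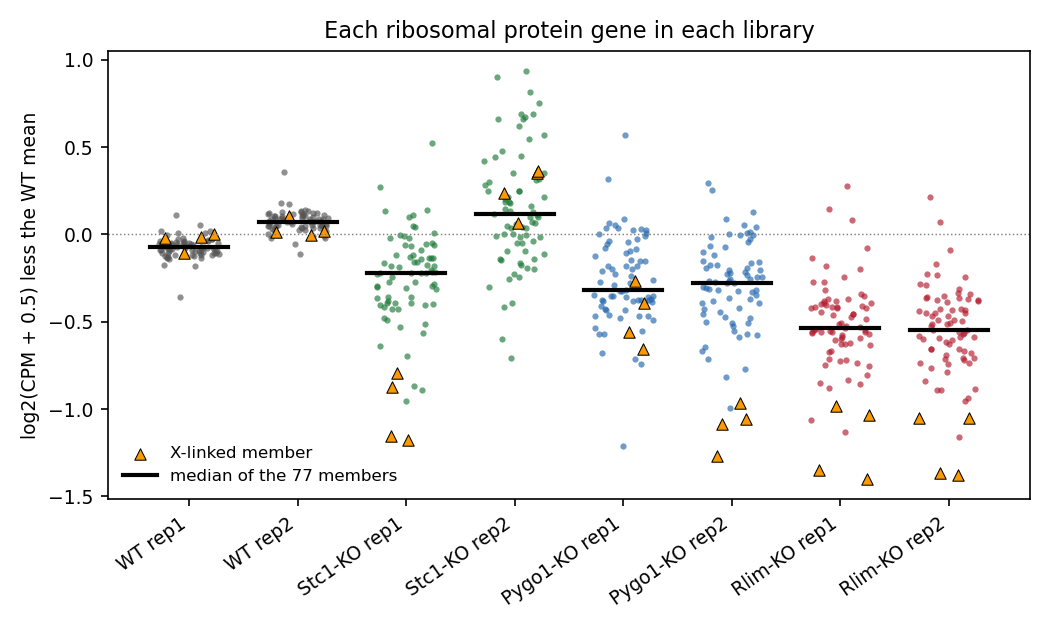
Each of the 77 members that passed the filter in each library, as log2(CPM + 0.5) less its WT mean (y axis, log2 units). Dots are members, orange triangles the 4 X-linked members, and black lines the median of the 77; the medians are -0.54 and -0.55 in Rlim-KO, -0.32 and -0.28 in Pygo1-KO, and -0.22 and 0.12 in Stc1-KO.

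Rlim-KO was the group in which most ribosomal protein genes stood lower. The log2 fold change against WT was below 0 in 75 of 77 members, against 49.4% of all 17839 genes tested, and its median was -0.55 (quartiles -0.69 and -0.40), that is 31.5% lower, against 0.01 over all genes. Both Rlim-KO libraries were below both WT libraries in 74 of 77 members, a pattern found in 35.6% of all genes, and above them in 1 (35.7% of all genes). In edgeR's quasi-likelihood test 2 members passed an adjusted p of 0.05, both lower, where 0.617% of all genes were called lower. At an unadjusted p under 0.05, 53 members were lower and none higher, against 9.09% of all genes lower and 8.82% higher. Most members therefore had the same direction and a modest size, and few passed the test across all genes.

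The 2 called members belong to the large subunit. Rpl30 (chr15:34440505-34443640, minus strand, GRCm38) was measured at 110 and 122 CPM in WT and at 64.9 and 60.3 CPM in Rlim-KO, a log2 fold change of -0.89 ± 0.15 (SE; edgeR adjusted p = 0.0459). Rpl12 (chr2:32961559-32965345, plus strand), which forms the base of the stalk together with Rplp0, was measured at 129 and 142 CPM in WT and at 82.4 and 78.1 CPM in Rlim-KO, a change of -0.75 ± 0.12 (adjusted p = 0.0458). In both genes the groups were well apart in every library. A 50-base run of Rpl30 occurs in 17 other genes and one of Rpl12 in 14, and Rpl12 also shares exon sequence with 1 overlapping gene, so both counts may hold reads of other loci. Both p-values lie close to the threshold, and the number of called members depended on the fit. It was 0 when any 1 WT or Rlim-KO library was left out, 1 (Rpl30) without either Pygo1-KO library, and 59 without Stc1-KO replicate 1, without replicate 2 or without both (8.65, 8.67 and 9.05% of all genes called lower). With a WT or Rlim-KO library left out, almost no gene of the whole set was called, so the count of 0 is not particular to the members. Their median log2 fold change ran from -0.60 (without WT replicate 1) to -0.46 (without WT replicate 2) in these fits. Without either Pygo1-KO library the share of all genes called stayed near that of the main fit. The number of called members was 0 with upper quartile scaling and 1 with a mean of at least 5 CPM. It was 13 with no filter on low counts (0.977% of all genes lower) and 32 in DESeq2 (4.04%). In a fit of the compared groups alone it was 73, 72 lower (26.1% of all genes) and 1 higher (22.8%).

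The members with the largest differences in Rlim-KO were not the called ones. Rpl39, a small protein of the peptide exit tunnel encoded on the X chromosome, was measured at 153 and 156 CPM in WT and at 58.2 and 59.1 in Rlim-KO (log2 fold change -1.40 ± 0.40, adjusted p = 0.142). Rpl10, an X-linked protein added late in the maturation of the large subunit, had 473 and 547 CPM in WT and 200 and 197 CPM in Rlim-KO (-1.36 ± 0.40, adjusted p = 0.145). Rpl32 had 225 and 250 CPM in WT and 113 and 106 in Rlim-KO (-1.12 ± 0.23, adjusted p = 0.0699). In all 3 genes the Rlim-KO libraries were at less than 0.5 times the WT mean, and none passed the test. The X-linked genes Rps4x (-1.04 ± 0.39) and Rpl36a (-1.02 ± 0.39) followed them, with adjusted p-values of 0.228 and 0.237.

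In all 31 small-subunit members both Rlim-KO libraries lay below both WT libraries, as they did in 35.6% of all genes. The median log2 fold change of these members was -0.58 (range -1.04 to -0.26). None of the 31 passed the edgeR test at an adjusted p of 0.05. At an unadjusted p under 0.05, 27 were lower, against 9.09% of all genes. Rps3, which lines the mRNA entry channel, had 561 and 721 CPM in WT and 352 and 343 in Rlim-KO (-0.88 ± 0.18, adjusted p = 0.0664). It shares a 50-base run with 1 other gene. The smallest difference was that of Rps14, at 352 and 398 CPM in WT and 310 and 316 CPM in Rlim-KO (-0.26 ± 0.14, adjusted p = 0.393). Among the 46 large-subunit members that passed the filter the median was -0.49, and 43 had both libraries lower (35.6% of all genes). The difference between the subunits was not tested.

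The exceptions were all large-subunit genes. Rpl9 had 210 and 223 CPM in WT and 262 and 251 CPM in Rlim-KO, the only member with both Rlim-KO libraries above both WT libraries (log2 fold change 0.24 ± 0.13, adjusted p = 0.368). Of its 50-base runs 93.3% occur in other genes. Rpl7a, at 11.3 and 13.3 CPM in WT and 13.7 and 12.9 CPM in Rlim-KO, overlapped (0.11 ± 0.28, adjusted p = 0.884), and so did Rpl29, which had 1.22 and 1.34 CPM in WT and 1.39 and 0.964 CPM in Rlim-KO. Rpl21 (-0.09 ± 0.18) and Rplp1 (-0.18 ± 0.26) completed the 5 highest, with adjusted p-values of 0.839 and 0.767. Rpl29, Rpl21 and Rpl7a are also 3 of the 5 members with the lowest level per kilobase.

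**Figure D3:**
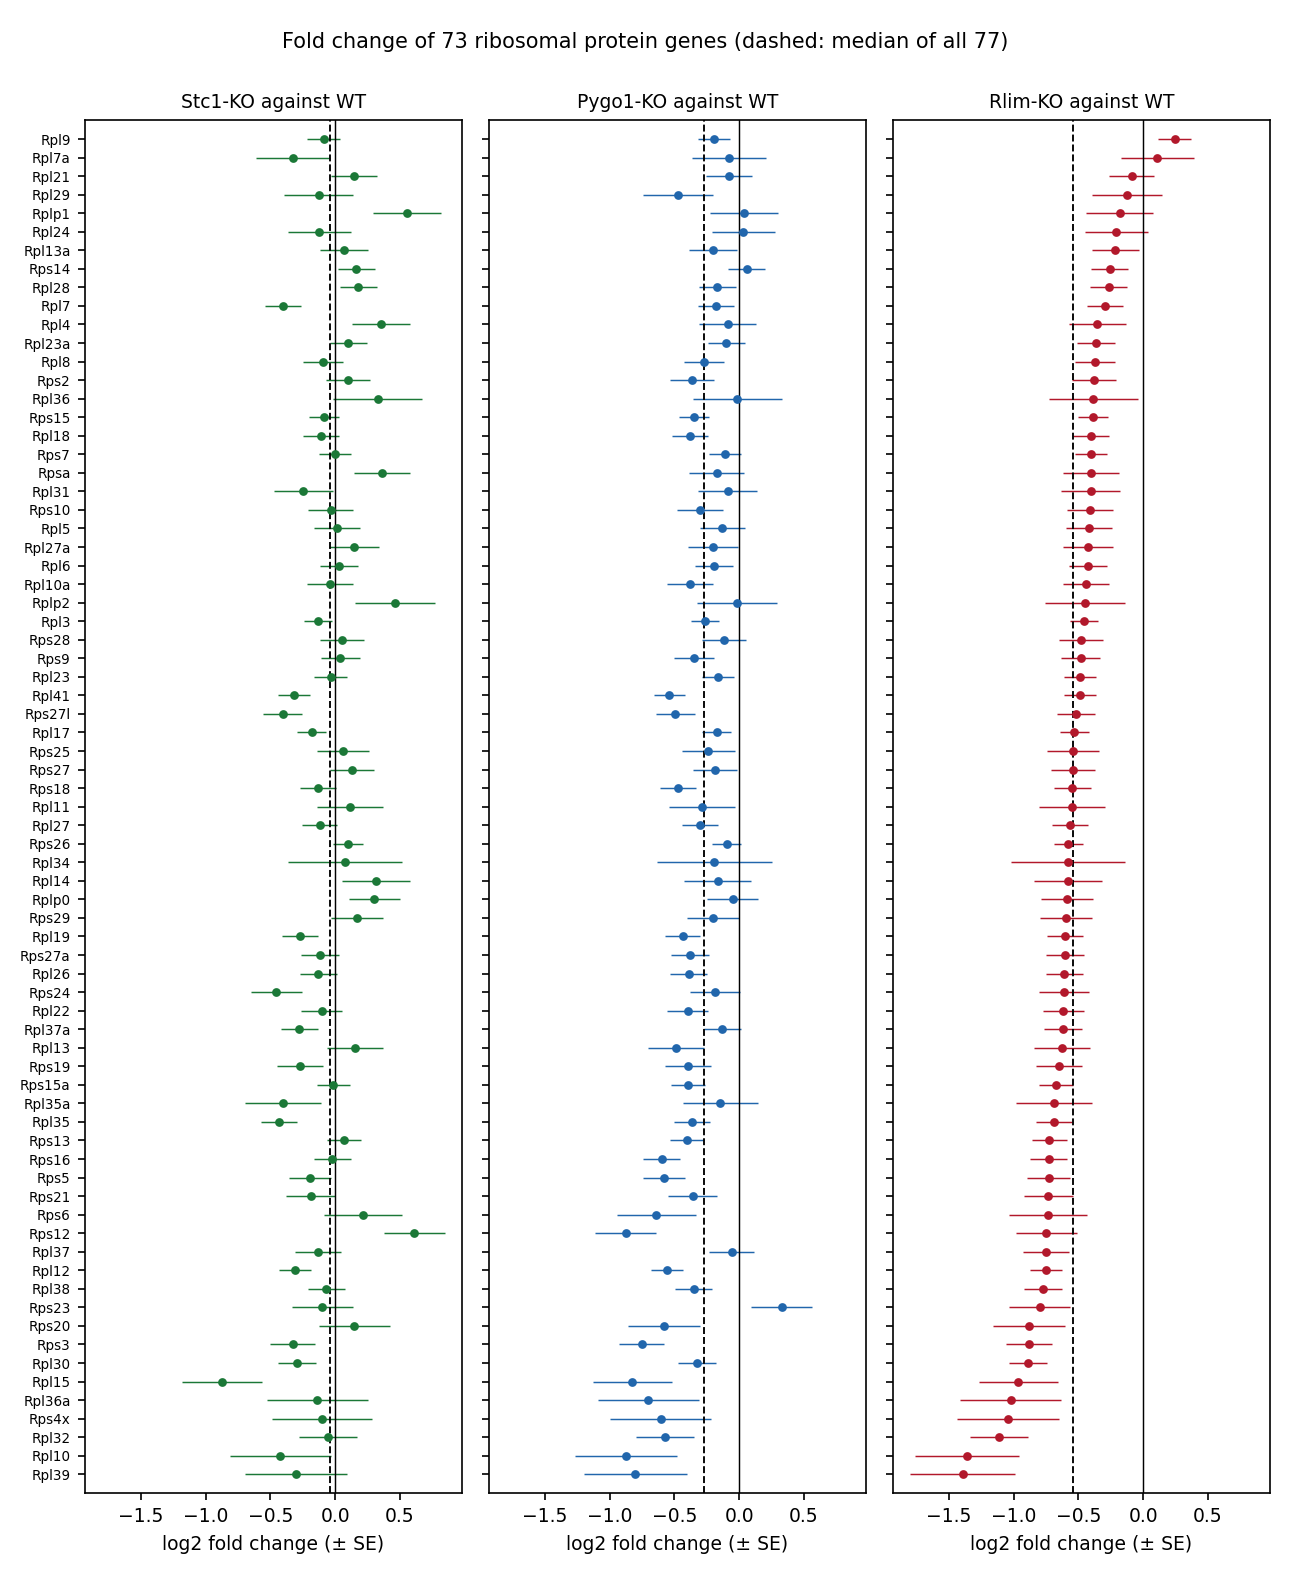
Log2 fold change against WT (x axis, point and SE, edgeR) of 73 members for Stc1-KO, Pygo1-KO and Rlim-KO, sorted by the Rlim-KO value, with the median of all 77 members dashed. Of the 77, 75 were below 0 in Rlim-KO, 71 in Pygo1-KO and 44 in Stc1-KO; the 3 panels share the same WT libraries.

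The members also lay closer together than other genes. The interquartile range of their log2 fold changes in Rlim-KO was 0.286, against 0.569 for all genes tested and 0.392 for the 5568 genes with a log2 CPM of at least 5.03, a floor that 8 of the 77 members do not reach. In Pygo1-KO it was 0.275 against 0.619 and 0.395, and in Stc1-KO 0.282 against 0.552 and 0.4. Within a pair, the members were shifted one way in some groups and not in others. WT replicate 2 was above replicate 1 in 70 of 77 members, with a median difference of 0.15 log2 units, while 52.7% of all genes were higher in replicate 2. In the Pygo1-KO pair 29 of 77 members were higher in replicate 2, with a median difference of -0.07. The Rlim-KO pair differed least of the 4, both for the members (median absolute difference 0.04 log2 units) and for all genes (0.08). For all genes the WT pair differed by 0.103, the Pygo1-KO pair by 0.2 and the Stc1-KO pair by 0.315. The Rlim-KO libraries were thus closer to each other than the WT libraries were. How far they vary independently of each other was not tested.

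In Pygo1-KO most members also stood below WT, by less than in Rlim-KO for the median member; this difference between the groups was not tested. Because each knockout group is set against the same WT libraries, the comparisons are not independent. The log2 fold change was below 0 in 71 of 77 members (50.1% of all genes), with a median of -0.27 or 17.3% lower, and both libraries were below both WT libraries in 54 members (31% of all genes) and above them in 1 (29.6% of all genes). No member passed the edgeR test, where 1.54% of all genes were called higher and 0.807% lower. At an unadjusted p under 0.05, 21 members were lower (9.37% of all genes) and none higher (11.3% of all genes), while DESeq2 gave 7 calls, all lower (4% of all genes). The edgeR count was 29 without Stc1-KO replicate 1, 29 without replicate 2 and 27 without both (9.39, 9.46 and 9.7% of all genes called lower). It was 9 in the compared groups alone (3.86%) and 2 with no filter (1.03%).

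Rps12 had the lowest value of any member in Pygo1-KO, at 64.4 and 55.3 CPM in WT and 35.5 and 29.7 CPM in Pygo1-KO (log2 fold change -0.88 ± 0.24, adjusted p = 0.108). It was followed by Rpl10 (-0.88 ± 0.40, adjusted p = 0.267), Rpl15 (-0.83 ± 0.31, adjusted p = 0.198), Rpl39 (-0.80 ± 0.40, adjusted p = 0.307) and Rps3 (-0.75 ± 0.18, adjusted p = 0.0803). In each of these 5 genes both Pygo1-KO libraries lay below both WT libraries. Among the highest were Rps23 (0.33 ± 0.23), Rps14 (0.06 ± 0.14), Rplp1 (0.04 ± 0.26) and Rpl24 (0.03 ± 0.24), with adjusted p-values from 0.473 to 0.96. Rps23, a protein of the decoding centre, had 185 and 129 CPM in Pygo1-KO against 119 and 131 in WT, so its groups overlapped. By subunit the median was -0.35 for the small and -0.20 for the large subunit, and this difference between subunits was not tested.

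In Stc1-KO the 2 libraries disagreed. Replicate 2 was above replicate 1 in 67 of 77 members, with a median difference of 0.35 log2 units, whereas 49.8% of all genes were higher in replicate 2. Against the WT mean the median member stood at -0.22 in replicate 1 and at 0.12 in replicate 2. The fitted median was -0.04, turning to 0.02 with upper quartile scaling, and 44 of 77 members were below 0 (48.4% of all genes). Both libraries were below both WT libraries in 14 members and above them in 3, where 22.2% of all genes were lower and 22.2% higher, and the other 60 overlapped. No member passed the edgeR test (0.286% of all genes higher, 0.291% lower), and DESeq2 called 0. At an unadjusted p under 0.05, 6 were lower (7.56% of all genes) and 1 higher (8.48%). Without replicate 1 the test called 17 members higher and 2 lower (11.1 and 12.9% of all genes), and without replicate 2 it called 5, all lower (3.65% of all genes).

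Rpl15 was the lowest member in Stc1-KO. It had 137 and 226 CPM in WT and 90.9 and 108 CPM in Stc1-KO (log2 fold change -0.87 ± 0.31, adjusted p = 0.244). Its WT libraries differed from each other more than most, and 23 other genes share a 50-base run with it. Rps24 (-0.45 ± 0.20), Rpl35 (-0.43 ± 0.14), Rpl10 (-0.42 ± 0.39) and Rps27l (-0.41 ± 0.15) came next, with adjusted p-values from 0.213 to 0.637. At the other end stood Rps12, which had 86.0 and 96.5 CPM in Stc1-KO against 64.4 and 55.3 CPM in WT (0.61 ± 0.24, adjusted p = 0.276). The stalk genes Rplp1 (0.56 ± 0.26) and Rplp2 (0.46 ± 0.31) and Rpsa (0.36 ± 0.22) were also among the highest, with adjusted p-values from 0.353 to 0.508. Rplp1 shows how far the pair was apart: 956 CPM in replicate 1 and 1768 CPM in replicate 2, against 895 and 955 CPM in WT.

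Rpl15 and Rps12 also varied differently between groups. Rpl15 had 75.9 and 129 CPM in Pygo1-KO and 95.6 and 90.6 CPM in Rlim-KO. Its values in all 6 knockout libraries were below those of both WT libraries. Rps12 was above WT in both Stc1-KO libraries and below it in Pygo1-KO and in Rlim-KO (27.0 and 44.2 CPM), where its log2 fold change was -0.75 ± 0.24 (adjusted p = 0.168). Of the 50-base runs of Rps12, 90.1% occur in other genes.

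Each autosomal and X-linked copy can be followed apart, because the authors assigned reads over a base that differs between the parents to genome 1 or genome 2. Which parent is which is not given in the labels, and 47.60 to 48.86% of the members' counts carried a genome. A share is the percentage of genome 1 among those reads. Alignment can favour 1 parent, so shares are compared between libraries and with neighbouring genes rather than read as absolute.

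The 4 X-linked members were lower than most in several libraries. Rps4x, a small-subunit protein, had 726 and 725 CPM in WT, 418 and 933 CPM in Stc1-KO, 604 and 349 CPM in Pygo1-KO, and 354 and 350 CPM in Rlim-KO. Rpl36a had 105 and 107, 57.7 and 135, 80.5 and 49.8, and 53.4 and 51.0 CPM in the same order. In both genes Stc1-KO replicate 1, Pygo1-KO replicate 2 and both Rlim-KO libraries were the lowest, and Stc1-KO replicate 2 was above WT. The median of the 4 members against the WT mean was -1.01 and 0.29 log2 units in Stc1-KO, -0.48 and -1.07 in Pygo1-KO, and -1.19 and -1.21 in Rlim-KO. For the other 588 X-linked genes tested, the medians were -0.44 and 0.03, -0.17 and -0.57, and -0.36 and -0.42. In both sets Stc1-KO replicate 1, Pygo1-KO replicate 2 and the Rlim-KO libraries were the lowest 4, but in another order: the Rlim-KO libraries were lowest for the members, and Pygo1-KO replicate 2 for the other genes. On the scale of the fitted log2 fold change in Rlim-KO, the 4 members had a median of -1.20 and the 588 other genes one of -0.48. On chromosome 7, which holds most members (14 that passed), the medians were -0.50 and 0.03.

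The RNA of Rpl10, Rps4x and Rpl36a came almost wholly from genome 2 in all 8 libraries. Genome 1 gave 0.61% (95% Wilson interval 0.47 to 0.79, of 8860 reads with a genome) of Rpl10 in WT replicate 1 and at most 1.2% (0.90 to 1.61) in any library. For Rps4x the share ran from 0.06 to 0.16%, and for Rpl36a from 2.44 to 3.74%. The intervals cover counting error only. Rpl39 differed, with a genome 1 share of 53.4 to 62.1% beside neighbours at 0.2% or less. Only 3.58% of its counts carried a genome (200 to 449 reads per library), and it shares a 50-base run with 9 other genes, 8 of them pseudogenes, whose part in this share was not tested.

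**Figure D4:**
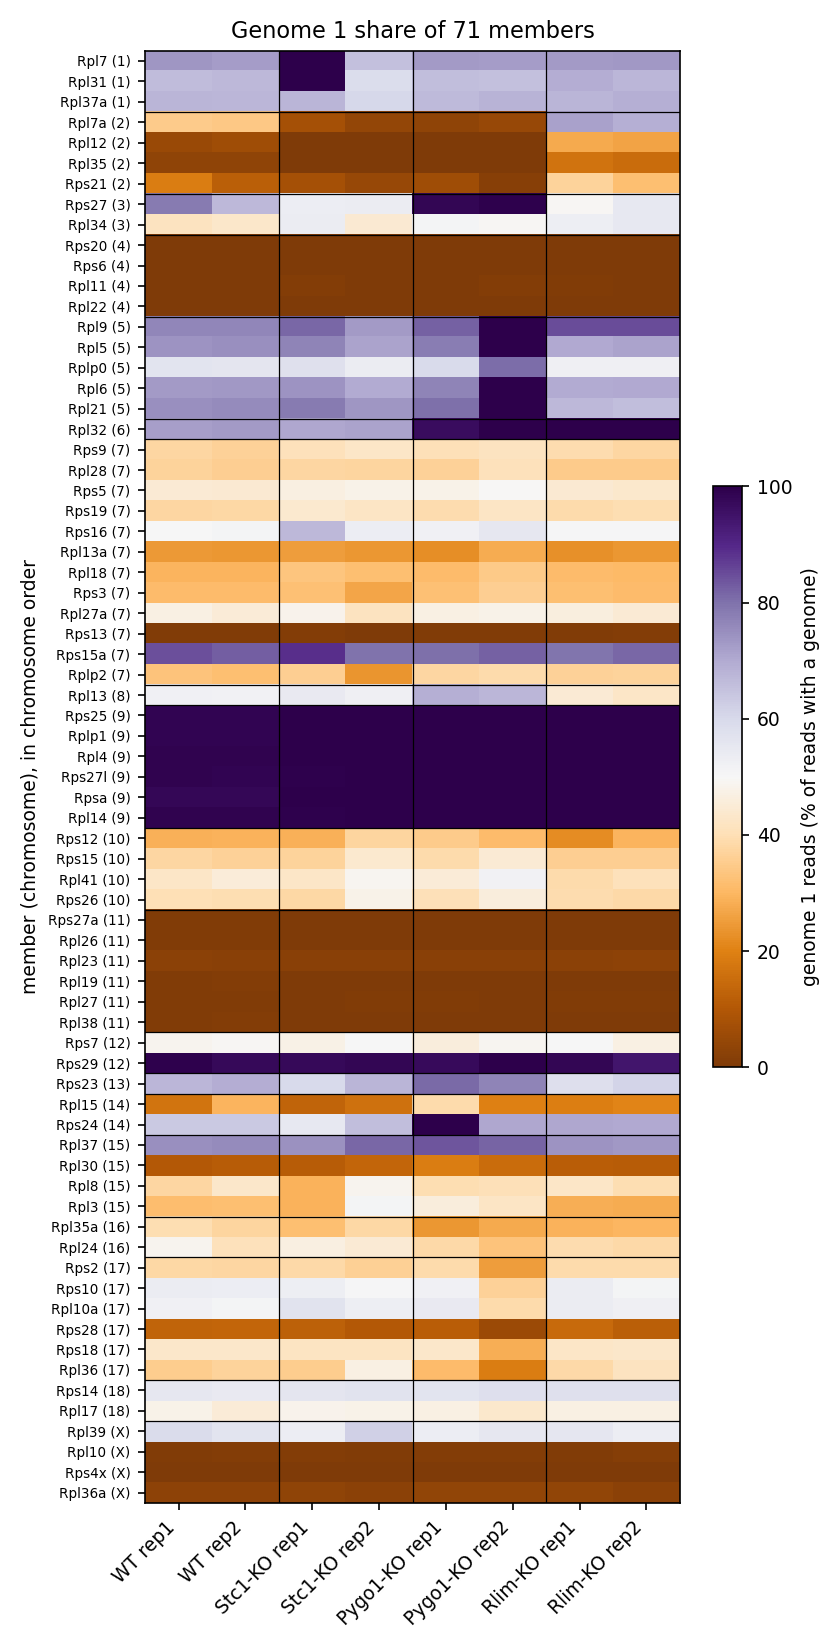
Share of genome 1 among reads with a genome (colour scale, 0 to 100%) for 71 members in chromosome order (rows, chromosome in brackets) in the 8 libraries (columns). The dark purple block is chromosome 9, read from genome 1, and the dark brown blocks are chromosomes 4 and 11 and 3 of 4 X-linked genes, read from genome 2; single cells turn purple where a member reached 95% or more, such as Rpl7 and Rpl31 in Stc1-KO replicate 1.

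Shares were tested in 75 members, each with at least 20 reads that carried a genome in every library. Of these, 15 drew at most 5% of them from genome 1 in every library, 6 drew at least 95%, and 54 drew on both or varied. The first class held all 5 members tested on chromosome 4 (Rpl11, Rpl22, Rps6 and Rps20 among them), all 6 on chromosome 11 (Rpl19, Rpl23, Rpl26, Rpl27, Rpl38 and Rps27a), 3 of 4 on the X chromosome and Rps13 on chromosome 7. The second held all 6 on chromosome 9 (Rpl4, Rpl14, Rplp1, Rps25, Rps27l and Rpsa). Genes of both subunits and of very different levels stood in each class, from Rplp1, the highest member per kilobase, to Rps27l. In Rlim-KO the median log2 fold change was -0.62 for the members read from genome 2, -0.46 for those read from genome 1 and -0.50 for the others, and in Stc1-KO it was -0.10, 0.34 and -0.05. These differences between classes were not tested.

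Most members stood near their chromosomal neighbours in genome 1 share. In WT replicate 1 the share of 53 of 75 members lay within 10 points of the median of the 10 nearest genes (5 on each side, with at least 50 reads with a genome). The same count over all genes was not made, so it is not read as a trait of the members. On chromosomes 4, 9, 11 and X the median of the other genes was 1.1, 98.6, 1.6 and 0.3% in that library. There most genes are read from 1 genome, so a small gap says little. A gap of over 25 points was found in 13 members, of which most are named here, after their values were seen. Rps13 had 0.5% beside neighbours at 48.6%, and Rps28 had 13.1% beside 55.8%. Rpl34 had 41.7% beside 93.9%, and Rps15a had 84.7% beside 49.3%. Rpl30, Rpl37 and Rpl15 lay at 10.4, 74.8 and 17.0% beside 38.6, 42.3 and 50.8%, and Rps29 at 99.3% beside 49.1%, with 3.06% of its counts carrying a genome. Rpl7a and Rpl39 were also among them. Rps13 kept its own share in all 8 libraries, between 0.3 and 1.0%. Of the 50-base runs of the members named here, 6.1% (Rps15a) to 83.0% (Rps13) occur in other genes. Their shares may therefore hold reads of other loci, and the part of such reads in these gaps was not tested.

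In single libraries some members were read almost wholly from genome 1, and in most cases so were their neighbours. Among the 44 members at 20 to 80% in both WT libraries, 2 were at 95% or more in Stc1-KO replicate 1, 3 in Pygo1-KO replicate 1, 6 in Pygo1-KO replicate 2, and 1 in each Rlim-KO library, while none was in Stc1-KO replicate 2. These members were picked by their shares, so their values are given without a test. The same count over all genes was not made, so these counts are not read as a trait of the members. The median of the other genes stood at 99.8% on chromosome 3 in both Pygo1-KO libraries and on chromosome 5 in Pygo1-KO replicate 2. It was 99.7 and 99.8% on chromosome 6 in Rlim-KO and 99.2% on chromosome 14 in Pygo1-KO replicate 1. On chromosome 1 in Stc1-KO replicate 1 it was 69.8%. Rpl7 and Rpl31, on chromosome 1, had genome 1 shares of 73.6 and 66.1% in WT replicate 1 and of 99.8 and 99.7% in Stc1-KO replicate 1, beside neighbours at 99.7% each. The third tested member of that chromosome, Rpl37a, stayed at 67.6% in the same library, as did its neighbours (67.8%). On chromosome 5 Rpl5, Rpl6, Rpl9 and Rpl21 stood at 99.8 to 100% in Pygo1-KO replicate 2, while in WT they lay between 72.8 and 76.4%. The fifth tested member there, Rplp0, stood at 80.5% in that library beside neighbours at 99.8%, with 192 CPM of genome 2 reads. In WT it stood at 56.6 and 56.1% beside neighbours at 68.8 and 67.8%. Of its 50-base runs 41.8% occur in other genes, and the part of other loci in its genome 2 reads was not tested.

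Reads of each genome are given beside the total of these members. Rpl7 had 118 CPM of genome 1 reads and 0.222 CPM of genome 2 reads in Stc1-KO replicate 1, against means of 122 and 45.1 in WT, and its total there was 0.677 times the WT mean. For Rpl31 the genome 1 reads were 1.01 times and the total 0.64 times the WT mean. Rpl5 and Rpl6 in Pygo1-KO replicate 2 had 1.19 and 1.09 times the genome 1 reads of WT and totals of 0.811 and 0.809 times WT. In these 4 genes the genome 1 reads were within 0.19 of the WT level, and the totals were lower. Rpl9 in the same library had 1.54 times the genome 1 reads and a total of 0.849 times, but only 5.26% of its counts carried a genome. Rps24, on chromosome 14, stood at 99.7% in Pygo1-KO replicate 1, with neighbours at 99.7%, 1.15 times the genome 1 reads and a total of 0.752 times. Rps27, on chromosome 3, stood at 98.1 and 99.6% in Pygo1-KO, where 1.17% of its counts carried a genome. The median member was itself below the WT mean in these libraries, at -0.22 log2 units in Stc1-KO replicate 1 and -0.32 and -0.28 in Pygo1-KO. The part of this shift of the whole family in the totals above was not tested.

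Rpl32, on chromosome 6, was the member in which genome 2 was nearly absent and the total low in both Rlim-KO libraries. Its genome 1 share was 72.0 and 72.7% in WT, 70.6 and 71.4% in Stc1-KO, 96.5 and 99.9% in Pygo1-KO and 99.8 and 99.8% in Rlim-KO, and its neighbours stood at 98.9 and 98.7% in Rlim-KO. Genome 2 reads were 0.105 and 0.103 CPM in Rlim-KO, against 31.6 and 34.4 CPM in WT, and the share passed the allele test (log2 odds 7.64 ± 1.55, edgeR adjusted p = 0.0382). Genome 1 reads were 55.6 and 54.7 CPM, against 81.2 and 91.9 CPM in WT, or 0.642 and 0.632 times the WT mean. The total was 0.477 and 0.446 times the WT mean, so the reads of the genome that was kept were lower as well. In Pygo1-KO, by contrast, genome 1 reads were 0.983 and 0.863 times and the total 0.74 and 0.607 times the WT mean. The median member stood at -0.54 and -0.55 log2 units against the WT mean in Rlim-KO and at -0.32 and -0.28 in Pygo1-KO.

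**Figure D5:**
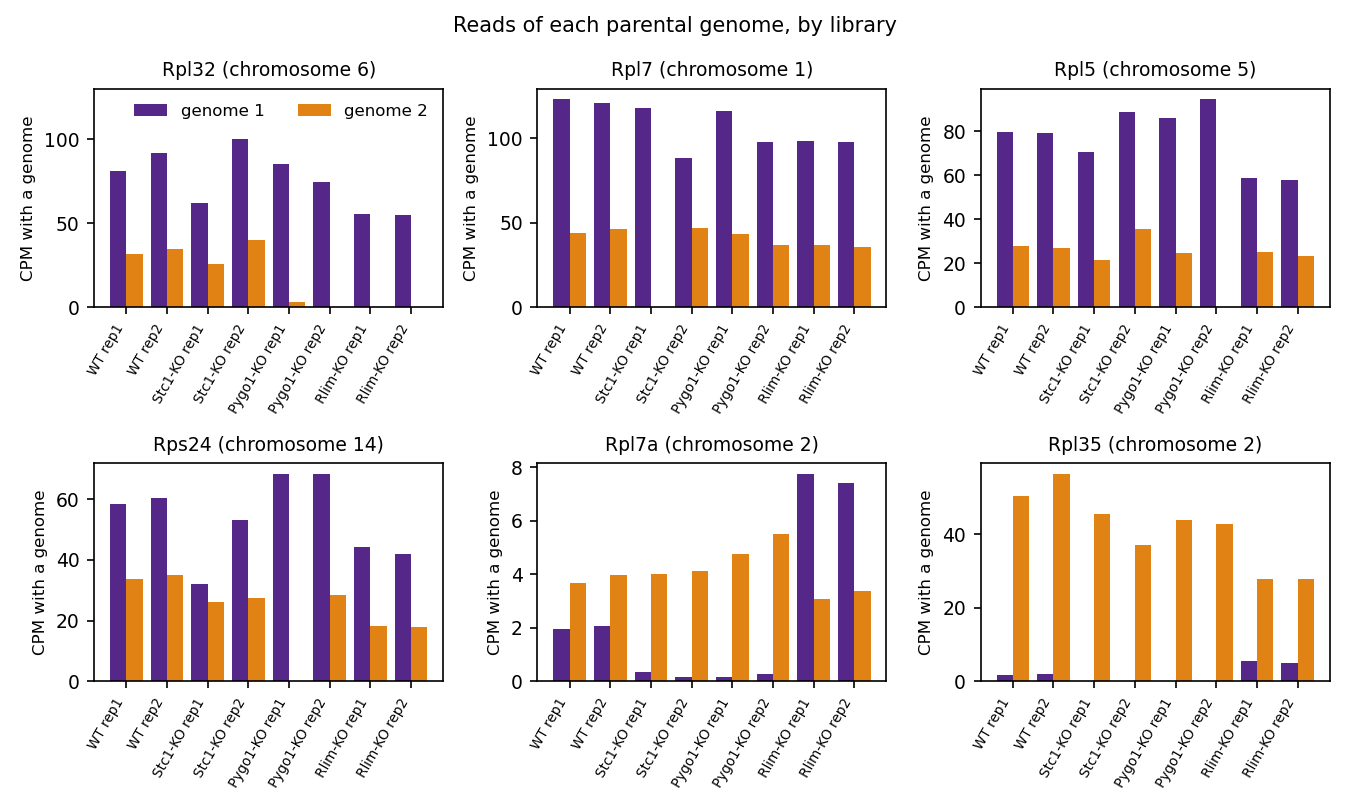
Reads of genome 1 (purple) and genome 2 (orange) in CPM for 6 members by library; each panel has its own axis from 0. Genome 2 is near 0 for Rpl32 in Rlim-KO and Pygo1-KO replicate 2, for Rpl7 in Stc1-KO replicate 1, for Rpl5 in Pygo1-KO replicate 2 and for Rps24 in Pygo1-KO replicate 1, while Rpl7a and Rpl35 gain genome 1 reads in Rlim-KO and lose them in Stc1-KO and Pygo1-KO.

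The allele test asked whether the odds of genome 1 against genome 2 differed from WT, over 12476 genes. It called 10 of 75 members in Stc1-KO (5.54% of all genes), 15 in Pygo1-KO (20% of all genes) and 12 in Rlim-KO (11.9% of all genes), so the share of members called in Pygo1-KO was that of all genes. On chromosome 2 the direction differed between groups. Rpl35 had a genome 1 share of 3.5 and 3.2% in WT, 0.0 and 0.1% in Stc1-KO, 0.1 and 0.2% in Pygo1-KO and 16.5 and 15.0% in Rlim-KO. Its log2 odds against WT were -6.02 ± 0.34, -4.63 ± 0.30 and 2.42 ± 0.26 (edgeR adjusted p = 0.00144, 0.000359 and 0.00805). Rpl12 went from 5.2 and 6.4% in WT to 0.2% or less in Stc1-KO and Pygo1-KO and to 27.5 and 26.3% in Rlim-KO (adjusted p = 0.00403, 0.000662 and 0.0234). Rpl7a went from 34.9 and 34.3% to between 3.3 and 7.6% in the former and to 71.7 and 68.8% in Rlim-KO (adjusted p = 0.0117, 0.00242 and 0.0238). All 3 genes thus lost genome 1 reads in Stc1-KO and Pygo1-KO and gained them in Rlim-KO, and their neighbours moved the same way (for Rpl35, 5.4% in WT replicate 1 and 23.4% in Rlim-KO replicate 1).

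In Rlim-KO the total of these genes did not follow the gain. Rpl35 had 101 and 115 CPM in WT and 67.3 and 66.5 CPM in Rlim-KO, with genome 2 reads of 27.7 and 27.9 CPM against 50.4 and 56.4. Rpl12, called lower in total, had 12.4 and 11.7 CPM of genome 1 reads against 3.58 and 4.96 in WT, and 32.5 and 32.8 CPM of genome 2 reads against 65 and 72.3. Rpl7a, with 7.76 and 7.41 CPM of genome 1 reads against 1.97 and 2.07 in WT, was one of the few members whose total was not lower.

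The other calls shared by the 3 groups were small changes at the ends of the scale. Rpl4, Rplp1, Rps25 and Rpsa on chromosome 9 had genome 1 shares of 97.7 to 99.2% in WT and of 99.8 to 100% in the 6 knockout libraries. Rpl19, Rpl26 and Rps27a on chromosome 11 had 0.5 to 0.8% in WT and 0.0 to 0.2% in the knockout libraries. WT thus held a trace of the other genome on both chromosomes that the knockout libraries held less of. The log2 odds were, for example, -3.94 ± 0.37, -4.43 ± 0.38 and -4.49 ± 0.39 for Rpl19 in Stc1-KO, Pygo1-KO and Rlim-KO (edgeR adjusted p = 0.00591, 0.00111 and 0.00552). In Pygo1-KO Rpl13 on chromosome 8 went from 52.1 and 51.7% to 69.1 and 67.4% (log2 odds 1.00 ± 0.13, adjusted p = 0.00464), with neighbours going from 55.0 to 70.2%. Rps27, at 78.2 and 67.0% in WT and 98.1 and 99.6% in Pygo1-KO, was also called there (5.06 ± 0.60, adjusted p = 0.00372). Left out in turn, either WT library took the number of called members to 1 in Stc1-KO (1.04% of all genes without replicate 1, 0.751% without replicate 2). In Pygo1-KO it was 8 without replicate 1 and 7 without replicate 2 (7.98 and 7.78% of all genes), and in Rlim-KO 0, where 0% of all genes were called. Leaving out either Rlim-KO library also took it to 0 in Rlim-KO (0% of all genes), and leaving out Pygo1-KO replicate 1 raised it to 28 in Pygo1-KO (33.6% of all genes).

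Some shares stood apart in single libraries of a group and were not called. On chromosome 17 Rps2, Rps10, Rps18 and Rpl10a stood at 25.3, 36.7, 28.4 and 39.0% in Pygo1-KO replicate 2, against 38.2, 53.8, 43.3 and 52.3% in WT replicate 1 and 39.0, 52.0, 43.3 and 54.4% in Pygo1-KO replicate 1. On chromosome 15 Rpl3 stood at 51.1% in Stc1-KO replicate 2 against 29.0% in replicate 1 and 31.6 and 31.9% in WT. It was also higher in both Pygo1-KO libraries (45.8 and 42.2%), where the difference from WT did not pass the test (edgeR adjusted p = 0.315). The neighbours stood at 36.2% for Rpl10a in Pygo1-KO replicate 2, and for Rpl3 at 57.6% in Stc1-KO replicate 2 and 53.9 and 47.6% in Pygo1-KO, against 38.9 and 37.7% in WT.

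Near copies within the family are pairs in which reads could be split wrongly, and Rps27 and Rps27l are the expressed pair. Both also share sequence with genes outside the pair. Of the 50-base runs of Rps27, 98.6% occur in other genes (9 genes, 7 of them pseudogenes), against 22.4% for Rps27l (4 and 3). The level of Rps27, its ratio to Rps27l and its genome share may therefore hold reads of other loci. Rps27l encodes a close relative of Rps27 known as a p53 target. Their coding sequences are 255 bases each and differ at 61 positions (76.1% identity). The first 120 coding bases of each, 5′ to 3′ on the transcript strand (GENCODE M21, GRCm38), are given to show how the 28 differences in this stretch, in capitals, are spread, since a read across it can be told apart:
Rps27: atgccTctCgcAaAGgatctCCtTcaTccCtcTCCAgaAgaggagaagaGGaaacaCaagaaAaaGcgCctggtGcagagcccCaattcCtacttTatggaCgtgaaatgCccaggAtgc
Rps27l: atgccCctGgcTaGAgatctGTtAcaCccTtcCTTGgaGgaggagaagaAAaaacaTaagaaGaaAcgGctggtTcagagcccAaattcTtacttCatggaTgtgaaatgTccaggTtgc
Rps27 had 238 and 255 CPM in WT, 237 and 303 CPM in Stc1-KO, 189 and 243 CPM in Pygo1-KO and 169 and 168 CPM in Rlim-KO. Rps27l had 21.0 and 24.0, 15.9 and 18.1, 15.3 and 16.7, and 16.7 and 14.8 CPM. The count of Rps27l was 0.0884 and 0.0944 times that of Rps27 in WT, and it lay between 0.0599 and 0.0986 times in the knockout libraries. The genes are thus in different positions: Rps27 lay around WT in Stc1-KO and was lower in both Rlim-KO libraries, while Rps27l was below both WT libraries in all 6 knockout libraries, with log2 fold changes of -0.41, -0.49 and -0.52 (adjusted p = 0.258, 0.133 and 0.141). Rps27l was read almost wholly from genome 1 and Rps27 from both genomes in WT.

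The relatives outside the naming rule were at a lower level than their members. Rpl22l1 was at 0.153 to 0.242 times the counts of Rpl22, Rpl7l1 at 0.124 to 0.232 times those of Rpl7, and Rpl36al at 0.0766 to 0.170 times those of Rpl36a. Against WT the 6 ribosomal protein genes with other symbols (Fau, Rps3a1, Rpl36al, Rpl22l1 and Rpl7l1 among them) had a median log2 fold change of -0.14 in Rlim-KO, -0.04 in Pygo1-KO and 0.01 in Stc1-KO. All 6 were below 0 in Rlim-KO (49.4% of all genes) and none passed the test. The lowest there were Rpl22l1 (-0.47 ± 0.16, adjusted p = 0.184) and Rps3a1 (-0.47 ± 0.23, adjusted p = 0.342).

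Pseudogenes named after the members moved with them. The annotation names 271 of these, 194 had any count and 129 passed the filter, and their summed counts came to 5.12 to 5.54% of those of the members in every library. Their median log2 fold change was -0.54 in Rlim-KO, -0.28 in Pygo1-KO and -0.03 in Stc1-KO, beside -0.55, -0.27 and -0.04 for the members. Of the 129, 116 were below 0 in Rlim-KO (49.4% of all genes) and none passed the edgeR test. Rpl12-ps1 (-1.52 ± 0.30, adjusted p = 0.0637) and Rpl19-ps1 (-0.67 ± 0.12, adjusted p = 0.0598) had the smallest adjusted p-values. Reads of a member and of its processed copies are hard to tell apart, and how much of the pseudogene counts is RNA of the members was not tested.

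Genes that work with the ribosomal proteins were taken from lists. Of 23 translation factors and other known TOP mRNAs, 22 were below 0 in Rlim-KO (49.4% of all genes), with a median of -0.38. None passed the edgeR test, and 12 were lower at an unadjusted p under 0.05 (9.09% of all genes). The smallest adjusted p-values were those of the elongation factor subunit Eef1b2 (258 and 267 CPM in WT, 186 and 178 CPM in Rlim-KO, -0.53 ± 0.13) and the X-linked initiation factor subunit Eif2s3x (-0.62 ± 0.15), both at 0.102. In Pygo1-KO the list had a median of -0.11 and in Stc1-KO one of 0.08. Ybx1, an RNA-binding protein, stood at -0.51 ± 0.12 in Pygo1-KO (adjusted p = 0.0764). Mitochondrial ribosomal protein genes, which serve another ribosome, had 77 members past the filter. Of these, 62 were below 0 in Rlim-KO, 61 in Pygo1-KO and 58 in Stc1-KO (49.4, 50.1 and 48.4% of all genes). Their medians were -0.22, -0.17 and -0.14, and none passed the test. Mrps6 in Rlim-KO (-0.72 ± 0.16, adjusted p = 0.0815) and Mrpl33 in Stc1-KO (-0.68 ± 0.13, adjusted p = 0.0798) came nearest.

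The machinery that makes ribosomes did not share the low median of the members in Rlim-KO. The 42 biogenesis factors had a median log2 fold change of -0.01 there, with 21 below 0 (49.4% of all genes). In Pygo1-KO the median was -0.15 and in Stc1-KO 0.24, and none passed the test. Nop10 (-0.56 ± 0.13, adjusted p = 0.0862) and Eif6 (0.50 ± 0.15, adjusted p = 0.141), which keeps new large subunits from joining small ones, show the spread in Rlim-KO. In Stc1-KO Utp4 had 48.7 and 50.3 CPM in WT against 67.8 and 73.0 (0.51 ± 0.11, adjusted p = 0.104). The 21 genes of the RNA polymerase I machinery, which transcribes ribosomal RNA, had medians of -0.08 in Rlim-KO, -0.09 in Pygo1-KO and -0.11 in Stc1-KO. None was called. Polr1b stood at 93.7 and 101 CPM in WT and 57.7 and 62.5 CPM in Rlim-KO (-0.70 ± 0.24, adjusted p = 0.19).

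The remaining lists gave 1 call, in Pygo1-KO, where 1.54% of all genes were called higher. Among 25 genes of mTORC1 signalling and TOP mRNA control the median was 0.01 in Rlim-KO, and Eif4ebp1, an inhibitor of translation that mTORC1 phosphorylates, had 117 and 136 CPM in WT and 76.5 and 77 CPM in Rlim-KO (-0.72 ± 0.13, adjusted p = 0.0587). Of 13 genes of the MYC network, Mlxipl, a glucose-responsive partner of Mlx, rose in Pygo1-KO from 1.04 and 1.18 to 8.85 and 18.7 CPM (log2 fold change 3.63 ± 0.54, adjusted p = 0.0297). Myc itself had 71.2 and 77.1 CPM in WT and 59.9 and 60.6 CPM in Rlim-KO (-0.30 ± 0.13, adjusted p = 0.289). The list's median was 0.03 in Rlim-KO and 0.24 in Pygo1-KO. The 10 snoRNA host genes past the filter had a median of -0.07 in Rlim-KO, led by Snhg18 (-0.94 ± 0.27, adjusted p = 0.135), and the 24 cell cycle genes one of 0.03, with Tyms at 0.39 ± 0.13 (adjusted p = 0.196). None of either list was called.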

How the data were processed

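RNA was extracted with Trizol and 1 library per sample was made with a TruSeq kit. The build was mm10, and the tools were featureCounts, Cufflinks and HISAT2 2.0.5, per the submitters' processing notes. The authors deposited raw read counts per gene for all reads, genome 1 and genome 2. The annotation, strand setting, handling of reads with several matches and the tool that split the genomes are not given in the sources used here. All columns were used.

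Symbols and transcripts came from GENCODE M21 (49411 of 49670 genes matched). Counts of all 8 libraries were fitted in edgeR 4.0.16 (R 4.3.3; TMM, default filter, 1 mean per group, quasi-likelihood test), leaving 17839 genes, with 4 residual and 2.94 prior degrees of freedom and a common coefficient of variation of 24.6%. Benjamini-Hochberg adjustment ran over all genes, and genes under 0.05 were called. SEs are the log2 fold change over the root of F. For alleles, the edgeR model held a term per library and a genome term per group, for genes with at least 20 reads with a genome in every library. In 329 genes the genomes summed to more than all counts and were left out, Rpl23a and Rpl29 among them. DESeq2 1.42.0 was an alternative, and the fits were tested on simulated data.

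The members and the lists were chosen with earlier results of these data known. The members named were those called, the 5 highest and 5 lowest per comparison and per kilobase, the X-linked ones, the called alleles with the largest log2 odds, near copies, and per list up to 4 genes with the smallest adjusted p; others were chosen after their values were seen. Some genes are counted but not reported by name here.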

Additional observations from a re-analysis of the deposited data

How the results depend on the processing

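The median log2 fold change kept its sign in Rlim-KO (-0.60 to -0.46) and Pygo1-KO (-0.34 to -0.19) under every alternative run, while in Stc1-KO it ran from -0.23 to 0.11. The difference in the share of counts ran from -0.82 to -0.62, from -0.52 to -0.33 and from -0.34 to 0.56 points in the same order. The number of called members depended on the fit, and the cause was not tested. In Rlim-KO it was 2 (1.4% of all genes called in either direction), against 0 with upper quartile scaling (1.43%) and 1 with a mean of at least 5 CPM (1.45%). It was 13 with no filter (2.08%), 32 in DESeq2 (8.04%) and 73 in the compared groups alone (48.9%). It was 59 without both Stc1-KO libraries (17.4%), an alternative added after the data were seen. In Pygo1-KO it was 0 (2.35% of all genes), against 2 with no filter (2.95%) and 7 in DESeq2 (9.46%). It was 9 there in the compared groups alone (9.97%) and 27 without both Stc1-KO libraries (21%). Leaving out each library in turn gave 0 to 59 calls in Rlim-KO, 0 to 29 in Pygo1-KO and 0 to 19 in Stc1-KO. Where 1 library of a group remained, it was assumed to vary like the other groups. Without a WT or Rlim-KO library almost no gene of the whole set was called in Rlim-KO, so the count of 0 there is not particular to the members. For alleles, leaving out each library gave 0 to 15, 7 to 28 and 1 to 12 called members, against 12, 15 and 10, and the compared groups alone gave 34 in Rlim-KO (40.1% of all genes).

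With the replicate number as a replicate block, the called members were 0 in Rlim-KO, 0 in Pygo1-KO and 0 in Stc1-KO. Of all genes, 0.146, 0.611 and 0.101% were called in the same order. Those called for alleles were 6, 13 and 9 (4.41, 14.6 and 3.09% of all genes). Same-numbered libraries of WT and a knockout group share only a number: their deviations correlated at 0.007 (Stc1-KO), 0.101 (Pygo1-KO) and 0.161 (Rlim-KO). Promoter motifs other than the TOP tract were not run, since no promoter sequences were used here.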
